A study of Mus musculus with 15 samples.

Results

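The 6 genes *Dmkn*, *Hp*, *Sort1*, *Mgl2*, *Fbxo38* and *Plekha6*, were followed library by library through 5 groups of LSK cells. They were selected on these same data, as genes whose 3 AG221 libraries did not overlap the 3 vehicle libraries, so their difference between those groups is given below as a description and not as a test. The 6 genes were found by symbol among 45232 gene IDs, and all 6 were among the 17834 genes with enough reads to be tested. Non-overlap alone is a loose criterion: it held for 3562 of the tested genes (20.0%, in either direction).

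LSK cells carry Sca-1 and c-Kit but no lineage markers, a part of the bone marrow that holds the haematopoietic stem cells and the earliest progenitors. RNA came from sorted CD45.2+ LSK cells of strain C57BL/6 (the name in the labels) and was amplified before sequencing, with 3 libraries in each group. In 4 groups the cells came from irradiated CD45.1 recipients of marrow that carried Idh2 R140Q and Jak2 V617F together, both switched on in blood cells by *Mx1-Cre*. The *Mx1* promoter responds to interferon and is active beyond blood cells. The marrow was transplanted in competition with CD45.1 cells, and only the CD45.2+ fraction was sorted. These recipients were gavaged for 21 to 28 days with vehicle, with AG221 at 40 mg/kg, with ruxolitinib at 60 mg/kg, or with both drugs at these doses (combined treatment). The last dose was given about 1.5 hours before sacrifice. The fifth group is labelled only as wild type (WT), and the labels give no age or drug for it. The study's methods describe adult mice of both sexes and do not say which entered which library. The labels do not say whether a library is 1 mouse or a pool, so the p-values measure the spread between these libraries.

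Mutant IDH2 converts alpha-ketoglutarate to 2-hydroxyglutarate, a metabolite that inhibits the dioxygenases which demethylate DNA and histones and that can hold blood progenitors back from differentiating. AG221 (enasidenib) inhibits the mutant IDH2 enzyme. Ruxolitinib inhibits JAK1 and JAK2, the kinases downstream of cytokine receptors such as those for erythropoietin and thrombopoietin, and the mutant JAK2 kinase is active without cytokine.

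The genes have unrelated known roles. *Dmkn* encodes dermokine, a secreted protein best known from the epidermis. *Hp* encodes haptoglobin, the plasma protein that binds free haemoglobin, which is made by the liver in the acute-phase response and also by maturing neutrophil precursors. *Sort1* encodes sortilin, a receptor that sorts cargo between the Golgi, the cell surface and lysosomes. *Mgl2* encodes CD301b, a galactose-type C-type lectin of dendritic cells and macrophages. *Fbxo38* encodes an F-box protein, the part of an SCF ubiquitin ligase that picks its substrate. *Plekha6* encodes a protein with a pleckstrin homology domain from a family found at cell junctions.

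All 6 are protein-coding genes at 6 separate loci (GRCm38). *Dmkn* (ENSMUSG00000060962) lies at chr7:30763756-30781063 on the plus strand, *Hp* (ENSMUSG00000031722) at chr8:109575128-109579172 on the minus strand and *Sort1* (ENSMUSG00000068747) at chr3:108284082-108361511 on the plus strand. *Mgl2* (ENSMUSG00000040950) lies at chr11:70130329-70137550 on the plus strand, *Fbxo38* (ENSMUSG00000042211) at chr18:62504155-62548695 on the minus strand and *Plekha6* (ENSMUSG00000041757) at chr1:133164210-133303435 on the plus strand. The strand setting of the counting is not given in the sources used here. An antisense gene covers 4.47% of the exon bases of *Sort1* (*Gm12523*) and 4.95% of those of *Plekha6* (*Gm19461*), and reads there cannot be assigned to one strand.

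Promoter sequence was matched for 3 of the 5 genes looked up (RefSeq, GRCm38.p6). No entry was matched for *Hp* and *Sort1*. The 250 bases before the start site are shown for *Dmkn*, *Mgl2* and *Plekha6*, so that letters the higher and lower genes do or do not share can be seen. Capitals mark matches, on either strand, to TTGCNNAA (the C/EBP motif) or TGANTCA (the AP-1 motif). C/EBP factors drive granulocyte genes and acute-phase genes such as haptoglobin. The first *Dmkn* sequence lies before the start of the gene (chr7:30763506-30763755) and the second before a start site inside it (chr7:30776155-30776404). The *Mgl2* sequence (chr11:70130107-70130356) reaches 28 bases into an annotated exon of another transcript of the gene. The *Plekha6* sequence (chr1:133245847-133246096) lies before an internal start site, in an intron of longer transcripts. All 4 are given 5′ to 3′ on the plus strand.

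Dmkn, start of the gene: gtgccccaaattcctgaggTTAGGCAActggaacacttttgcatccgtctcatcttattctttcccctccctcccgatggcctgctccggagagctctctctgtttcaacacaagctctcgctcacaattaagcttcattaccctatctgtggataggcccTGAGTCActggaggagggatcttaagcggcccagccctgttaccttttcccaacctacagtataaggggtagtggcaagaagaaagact
Dmkn, internal start: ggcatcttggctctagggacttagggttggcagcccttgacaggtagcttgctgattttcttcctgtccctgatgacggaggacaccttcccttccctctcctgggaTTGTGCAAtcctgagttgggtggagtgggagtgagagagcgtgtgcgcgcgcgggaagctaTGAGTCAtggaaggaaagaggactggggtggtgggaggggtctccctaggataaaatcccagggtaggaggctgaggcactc
Mgl2: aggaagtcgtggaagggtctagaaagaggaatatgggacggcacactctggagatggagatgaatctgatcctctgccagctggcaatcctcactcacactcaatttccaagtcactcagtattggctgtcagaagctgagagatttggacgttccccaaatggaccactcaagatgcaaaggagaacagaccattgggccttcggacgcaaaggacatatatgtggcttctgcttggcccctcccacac
Plekha6: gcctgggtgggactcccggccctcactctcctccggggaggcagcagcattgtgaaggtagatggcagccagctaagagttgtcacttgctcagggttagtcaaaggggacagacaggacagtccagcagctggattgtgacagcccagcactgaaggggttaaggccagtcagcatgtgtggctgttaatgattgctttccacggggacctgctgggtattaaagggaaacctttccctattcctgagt

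Both *Dmkn* sequences hold one match to each motif. In the first, the C/EBP letters begin 231 bases and the AP-1 letters 89 bases before the start. In the second, they begin 143 and 82 bases before it. Of 32851 promoter sequences of this length, 9.564% hold the C/EBP letters, 6.749% the AP-1 letters and 0.8371% both. The *Mgl2* and *Plekha6* sequences hold neither, and none of the 4 holds TTCNNNGAA (the STAT motif, in 7.02% of promoters) or AGATAA (the GATA motif, in 9.988%). A match is a description of the letters and not of a bound site.

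Total counts ran from 18836625 to 32174287 per library (median 25545779), and levels are given as CPM, read counts scaled to a common library total, after TMM scaling. Some features of the libraries touch the results. The replicate names of the combined and WT groups carry the letter B and those of the other 3 groups the letter A, and the labels do not say what the letters stand for. The letter and the treatment cannot be told apart in combined treatment against ruxolitinib or in ruxolitinib against WT. The WT libraries held *Xist* at 481 ± 28.2 CPM and *Ddx3y* at 0.0335 ± 0.0581 CPM (SD, n = 3), against *Xist* means of 1.82 to 11.0 and *Ddx3y* means of 134 to 180 in the other groups, so that sex and genotype cannot be told apart in comparisons with WT. *Idh2* itself was at 55.1 and 65.9 CPM in AG221 libraries A8 and A10 and at 335 CPM in A9, and at 124 CPM in ruxolitinib library A16 against 480.2 and 425 CPM in A14 and A17. In the other groups it ran from 212 to 461 CPM (vehicle), 465 to 568 CPM (combined) and 376 to 440.02 CPM (WT). Such a spread was not limited to *Idh2*. From lowest to highest AG221 library, *Jak1* was at 96.8, 110 and 213 CPM and *Stat3* at 102, 103 and 306 CPM, whereas *Jak2* was at 26.7, 27.0 and 31.5 CPM.

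*Dmkn* was highest in the AG221 group. Its vehicle libraries A1, A3 and A4 were at 8.80, 10.4 and 7.62 CPM, and its AG221 libraries A8, A9 and A10 at 43.2, 31.9 and 33.3 CPM. The ruxolitinib libraries A14, A16 and A17 were at 19.5, 12.3 and 17.3 CPM. The combined libraries B24, B25 and B26 held 4.33, 6.53 and 7.49 CPM, and the WT libraries B28, B30 and B31 held 2.90, 3.88 and 3.25 CPM. The 5 groups did not overlap at any step, in the order WT, combined, vehicle, ruxolitinib and AG221. Every combined library was therefore below every vehicle library, while every ruxolitinib and every AG221 library was above. The gap to the combined group was narrow, with the lowest vehicle library at 1.02 times the highest combined library. The share of all tested genes without overlap between combined and vehicle libraries was not counted.

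*Hp* had the same order at a higher level. Vehicle libraries were at 99.6, 117 and 92.0 CPM and AG221 libraries at 412, 262 and 281 CPM. Ruxolitinib libraries were at 200, 114 and 131 CPM, and one of them (A16) lay within the vehicle range. Combined libraries held 42.3, 54.8 and 74.7 CPM and WT libraries 28.1, 34.9 and 26.7 CPM, both below all vehicle libraries.

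*Mgl2* was raised in both single-drug groups. Vehicle libraries were at 6.50, 5.26 and 2.49 CPM, AG221 libraries at 25.7, 22.6 and 15.9 CPM and ruxolitinib libraries at 23.1, 21.4 and 13.6 CPM. The AG221 and ruxolitinib ranges overlapped, so a high level of *Mgl2* was not particular to AG221. Combined libraries were back at 3.76, 7.81 and 5.09 CPM, overlapping both vehicle and the WT libraries at 7.47, 7.52 and 6.20 CPM.

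*Sort1* was high in both groups that received AG221. Vehicle libraries were at 18.3, 19.1 and 14.5 CPM and ruxolitinib libraries at 19.8, 20.7 and 20.3 CPM. AG221 libraries were at 32.6, 44.1 and 29.6 CPM and combined libraries at 37.2, 35.8 and 39.3 CPM. The last 2 groups overlapped, and both stood above the WT libraries at 27.2, 27.6 and 24.1 CPM, which in turn stood above ruxolitinib and vehicle.

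*Fbxo38* was low in both groups that received AG221. Vehicle libraries were at 162, 164 and 159.8 CPM and ruxolitinib libraries at 166, 179 and 159.8 CPM, overlapping each other. AG221 libraries were at 88.7, 112 and 99.7 CPM and combined libraries at 125, 117 and 128 CPM, and the AG221 group was the lower of these without overlap. The WT libraries, at 119.7, 113 and 114 CPM, overlapped the combined group and not the AG221 group.

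*Plekha6* was low in AG221 and in no other group. AG221 libraries were at 1.37, 1.45 and 1.13 CPM, from 32, 31 and 31 counts. Vehicle libraries were at 2.97, 4.15 and 6.08 CPM and ruxolitinib libraries at 5.13, 7.48 and 6.49 CPM. Combined libraries were at 6.00, 4.46 and 5.23 CPM and WT libraries at 5.77, 6.10 and 5.23 CPM. These 4 groups overlapped from one to the next. Per kilobase of exon, AG221 means were 198 CPM for *Hp*, 17.7 for *Fbxo38*, 16.5 for *Dmkn*, 10.2 for *Mgl2*, 4.68 for *Sort1* and 0.105 for *Plekha6*.

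**Figure D1:**
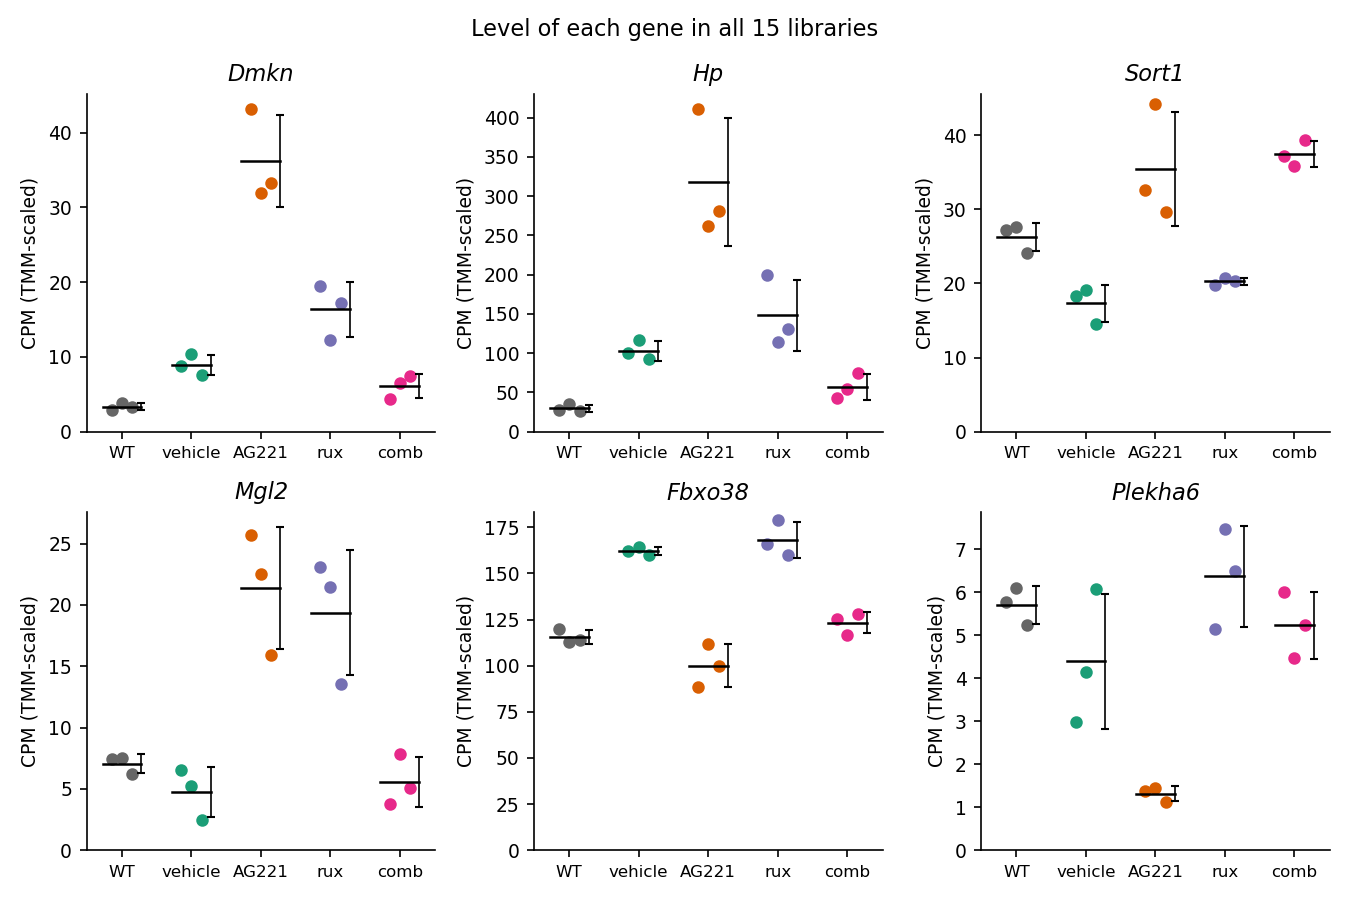
CPM of each gene (y axis, from 0) in the 3 libraries (points) of WT, vehicle, AG221, ruxolitinib (rux) and combined (comb) groups, with the mean as a line and the SD as a bar. *Dmkn* and *Hp* are highest in AG221 and below vehicle in combined treatment, *Dmkn* only narrowly. *Mgl2* is high in both single-drug groups, *Sort1* is high and *Fbxo38* low with either AG221 arm, and *Plekha6* is low only in AG221.

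The differences by which the genes were chosen were as follows. *Mgl2* was 4.49-fold higher in AG221 than in vehicle (log2 fold change 2.17, SE 0.36), *Dmkn* 4.05-fold (2.02, SE 0.25), *Hp* 3.09-fold (1.63, SE 0.25) and *Sort1* 2.05-fold (1.03, SE 0.17). *Plekha6* was 3.34-fold lower (log2 fold change -1.74, SE 0.28) and *Fbxo38* 1.62-fold lower (-0.70, SE 0.11). The lowest AG221 library of *Dmkn* was 3.08 times its highest vehicle library, and that of *Sort1* 1.55 times. By p-value the genes ranked 1 (*Dmkn*), 4 (*Hp*), 5 (*Fbxo38*), 6 (*Plekha6*), 9 (*Sort1*) and 12 (*Mgl2*) of all tested genes. These ranks come from the 5-group fit. All 6 were under an adjusted p of 0.05 there and without A9, 2 were without A3, and 0 were without A1, A4, A8 or A10 or in an edgeR fit of only these 2 groups, whereas all 6 kept an unadjusted p under 0.05 in each of these fits and DESeq2 called all 6. Across all genes, 0.471% were called higher and 0.516% lower in AG221 than in vehicle at an adjusted p under 0.05. Just outside the choice, *Sem1* was next among the higher genes (264 against 155 CPM, log2 fold change 0.77) and *S1pr1* among the lower (11.7 against 28.5 CPM, -1.29). *Zfp397* (47.1 against 96.5 CPM, -1.03) and *Gm15774* (0.543 against 2.21 CPM, -2.01) ranked among the 6 by p-value and are not in the set.

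Whether AG221 was accompanied by the same differences on top of ruxolitinib was asked by comparing combined treatment with ruxolitinib. Neither group selected the genes, but the spread was estimated over all 15 libraries, including those that did. Of the 6 genes, 5 were called (1 higher and 4 lower), where 8.50% of all tested genes were called higher and 3.94% lower. An edgeR fit of only these 2 groups also called 5, with weaker adjusted p from 0.0218 (*Sort1*) to 0.0356 (*Fbxo38*). *Sort1* rose 1.85-fold (log2 fold change 0.89, SE 0.17, adjusted p = 0.0045), and *Fbxo38* fell (log2 fold change -0.45, SE 0.11, adjusted p = 0.0158), each in the direction it had without ruxolitinib. *Dmkn* (log2 fold change -1.41, SE 0.25, adjusted p = 0.00291), *Hp* (-1.37, SE 0.25, adjusted p = 0.00381) and *Mgl2* (-1.80, SE 0.36, adjusted p = 0.00551) fell, opposite to AG221 against vehicle. They were 2.67-fold, 2.59-fold and 3.47-fold lower in combined treatment than in ruxolitinib, and for all 3 the combined libraries lay below every ruxolitinib library. Non-overlap between these groups held for 35.5% of all tested genes. Non-overlap in both comparisons on opposite sides held for 2.85%, a share from which nothing is read, since AG221 against vehicle chose the 3 genes.

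*Plekha6* differed by -0.29 on the log2 scale (SE 0.26, adjusted p = 0.548), with overlapping libraries. The calls of *Dmkn*, *Hp*, *Sort1* and *Mgl2* held in all 12 alternative analyses, including the omission of each library. The call of *Fbxo38* held in 8 of 12. It was lost without A16 (adjusted p = 0.0508), without B24 (0.0629), without B25 (0.0799) and without a filter on low counts (0.139), with log2 fold changes from -0.58 to -0.41 over the 12.

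**Figure D2:**
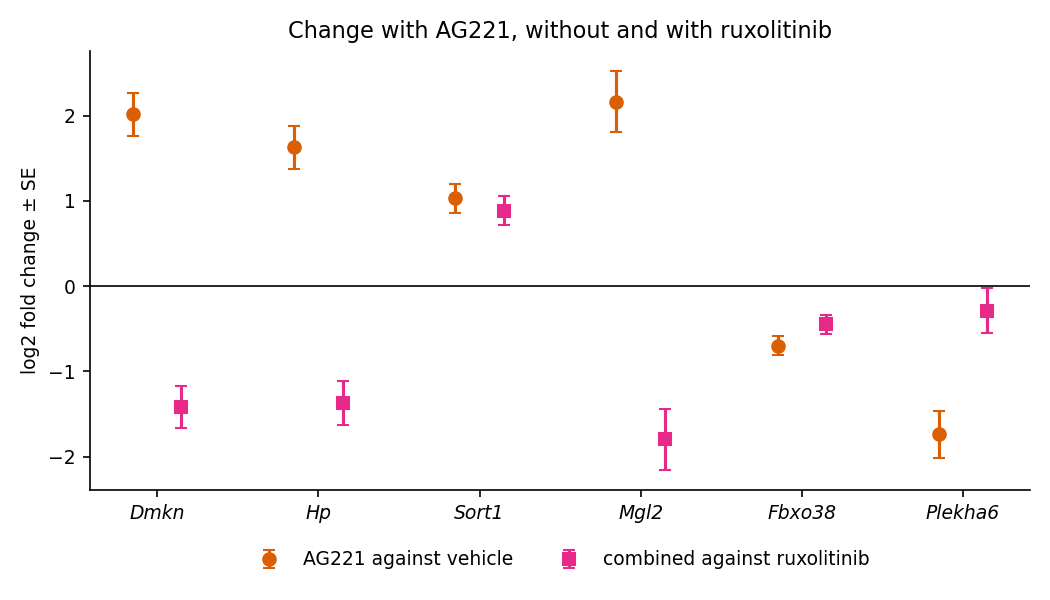
Log2 fold change with its SE (y axis) of each gene in AG221 against vehicle, which chose the genes (circles), and in combined treatment against ruxolitinib (squares). *Sort1* and *Fbxo38* lie on the same side of 0 in both, *Dmkn*, *Hp* and *Mgl2* on opposite sides, and *Plekha6* is at -1.74 and -0.29.

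The level reached under each drug regimen was compared with WT in the 2 groups that did not select the genes. In ruxolitinib against WT, 4 of the 6 genes were called, all higher, where 16.1% of tested genes were called higher and 16.2% lower. *Hp* was 4.96-fold (log2 fold change 2.31, SE 0.26, adjusted p = 0.00022) and *Dmkn* 4.88-fold higher (2.29, SE 0.25, adjusted p = 0.000191). *Mgl2* was 2.74-fold (adjusted p = 0.0108) and *Fbxo38* 1.46-fold higher (adjusted p = 0.00511). *Sort1* was at -0.38 (adjusted p = 0.0982) and *Plekha6* at 0.16 (adjusted p = 0.65). The median log2 fold change over all genes was -0.143 in this comparison.

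In combined treatment against WT, 0 of the 6 genes passed the edgeR test, where 1.63% of tested genes were called higher and 1.61% lower. At an unadjusted p under 0.05, 3 of the 6 passed, and DESeq2 called 3. *Hp* was at 1.92-fold (log2 fold change 0.94, SE 0.25, adjusted p = 0.0593), *Dmkn* at 1.83-fold (0.87, SE 0.25, adjusted p = 0.066) and *Sort1* at 1.42-fold of WT (0.51, SE 0.17, adjusted p = 0.093), and in each the 3 combined libraries lay above the 3 WT libraries, but 41.6% of all tested genes did not overlap between these groups. Without combined library B24, *Hp* and *Dmkn* were called (adjusted p = 0.0436 and 0.0439). *Mgl2*, *Fbxo38* and *Plekha6* overlapped WT, with log2 differences of -0.34, 0.09 and -0.13.

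Other contrasts share the vehicle or AG221 libraries with the choice and are given without a test. From AG221 to combined treatment, *Dmkn* differed by -2.56 on the log2 scale, *Hp* by -2.47 and *Mgl2* by -1.94. *Plekha6* differed by 1.99 and was 3.96-fold higher in combined treatment than in AG221. *Fbxo38* differed by 0.30 and *Sort1* by 0.08. Vehicle stood above WT for *Hp* (log2 fold change 1.78), *Dmkn* (1.42) and *Fbxo38* (0.49) and below WT for *Sort1* (-0.60), without overlap in any of these 4, where 56.9% of all tested genes did not overlap between vehicle and WT. AG221 thus lay farther from WT than vehicle did for *Hp* (3.41) and *Dmkn* (3.43), and was on the other side of WT from vehicle for *Sort1* (0.43) and *Fbxo38* (-0.21).

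*Dmkn* and *Hp* followed each other across the 15 libraries (Pearson r = 0.988 of log2 CPM), and each was among the 3 genes most like the other. These libraries share groups, so the correlation is a description. The other genes most like *Dmkn* were *Trem3* (r = 0.984) and *Clec5a* (0.979), receptors of the myeloid lineage, and those most like *Hp* were *Trem3* (0.992) and *Tmed3* (0.987). *Clec5a* and *Trem3* fell with combined treatment against ruxolitinib (log2 fold changes -1.40 and -1.32, adjusted p = 0.0237 and 0.00587). *Mgl2* was less close to *Dmkn* (r = 0.735), and *Sort1* and *Fbxo38* ran opposite to each other (r = -0.728). The genes most like the other 4 were *Abhd17c* for *Sort1* (0.954), *Tfec* for *Mgl2* (0.878), *Edc4* for *Fbxo38* (0.958) and *Katnal1* for *Plekha6* (0.926). By Spearman's rho, 2 of the 3 most alike genes were shared for *Dmkn*, *Hp* and *Mgl2*, 1 for *Sort1* and 0 for *Fbxo38* and *Plekha6*. *Abhd17c* was first for *Sort1* by both measures. *Tfec*, *Edc4* and *Katnal1* were not among the 3 by Spearman's rho, so these names rest on the measure.

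Some neutrophil genes fell where *Dmkn* and *Hp* fell. Of 18 neutrophil markers, 5 fell in combined treatment against ruxolitinib and none rose, where 3.94% of all genes were called lower, with a median log2 fold change of -1.54 over the list and of 0.0145 over all tested genes. The 5 were the azurophil granule genes *Elane* (-1.67, adjusted p = 0.00495), *Mpo* (-1.42, adjusted p = 0.00204), *Prtn3* (-0.92, adjusted p = 0.0205) and *Ctsg* (-0.83, adjusted p = 0.0406) and the granulocyte factor *Cebpe* (-2.02, adjusted p = 0.00942). In ruxolitinib against WT 10 of the 18 rose, in combined treatment against WT 1 rose, and in AG221 against vehicle 1 rose (*Ctsg*, log2 fold change 1.12, adjusted p = 0.0489). Of all tested genes, 16.1%, 1.63% and 0.471% were called higher in these comparisons. The median log2 fold change over the list was 1.18 in AG221 against vehicle, with 7 markers at an unadjusted p under 0.05 and 6 called by DESeq2. It was 0.686 in combined treatment against WT, with 6 markers at an unadjusted p under 0.05 and 5 called by DESeq2. With each of the 6 combined and ruxolitinib libraries left out in turn, *Elane* and *Mpo* were called every time, *Cebpe* 5 times, and *Prtn3* and *Ctsg* 2 times each (adjusted p up to 0.182).

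The summed CPM of the 18 markers was 3799 to 4133 in WT, 4569 to 8086 in combined, 8312 to 13193 in vehicle, 12562 to 19953 in ruxolitinib and 17950 to 21086 in AG221 libraries. All 18 had counts in every group. In bulk RNA, fewer cells of a type and less RNA per cell cannot be told apart. Per 1000 CPM of this sum, a scale chosen after seeing the data, *Hp* was at 8.89 to 10.01 in ruxolitinib and 9.24 to 9.62 in combined libraries, so the groups overlapped. *Dmkn* was at 0.976 to 1.17 and 0.927 to 1.15, and *Mgl2* at 0.92 to 1.71 and 0.629 to 1.37, which also overlapped. Every gene is shifted by the same factor in a library on this scale. On the same scale the AG221 libraries were above the vehicle libraries, at 13.8 to 19.5 against 8.84 to 11.98 for *Hp*, 1.69 to 2.05 against 0.765 to 1.06 for *Dmkn* and 0.886 to 1.22 against 0.25 to 0.783 for *Mgl2*. *Sort1* overlapped, at 1.55 to 2.34 in AG221 and 1.45 to 2.20 in vehicle libraries. These groups chose the genes, so nothing is read from this, and the share of all tested genes was not counted on this scale.

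**Figure D3:**
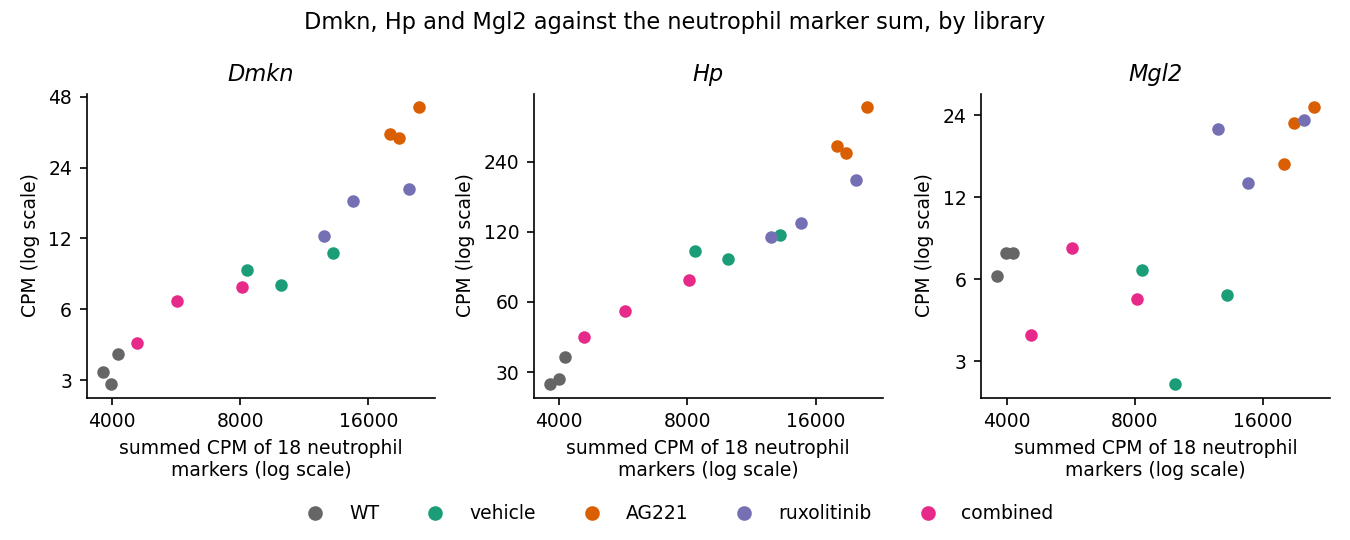
CPM of *Dmkn*, *Hp* and *Mgl2* (y axes, log scale) against the summed CPM of 18 neutrophil markers (x axis, log scale) in the 15 libraries, coloured by group. Most of the sum is *Mpo* and *Elane*. *Dmkn* and *Hp* rise with the sum across groups, with the AG221 libraries highest, and *Mgl2* lies at 2.49 to 6.50 CPM in vehicle and at 13.6 to 23.1 CPM in ruxolitinib libraries.

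Dermokine is best known from the epidermis and haptoglobin from the liver, so markers of both were examined. The 9 epithelial markers summed to 27.8 to 45.5 CPM in AG221 and 51.4 to 97.0 CPM in vehicle libraries, without overlap and opposite to *Dmkn*. Most of this came from *Krt18* (32.24 ± 7.57 CPM in AG221 and 54.4 ± 28.6 CPM in vehicle) and *Cdh1* (2.48 ± 1.22 and 10.8 ± 9.46 CPM, SD, n = 3). The keratins of the basal epidermis, *Krt5* and *Krt14*, had no count in any vehicle, AG221 or ruxolitinib library. The neighbours of *Dmkn* in the epidermal gene cluster, *Krtdap* and *Sbsn*, were at 0.0469 and 1.65 CPM in AG221 (means, n = 3). Of 6 hepatocyte markers, the summed level was 0.563 to 1.24 CPM in AG221 and 0.338 to 0.671 CPM in vehicle libraries. The LSK markers *Kit* and *Cd34* were at 955 ± 63.0 and 945 ± 203 CPM in combined treatment and at 1276 ± 144 and 784 ± 99.7 CPM in ruxolitinib (SD, n = 3). Of 12 LSK markers 0 passed the edgeR test between these groups, with 3 at an unadjusted p under 0.05 and 1 called by DESeq2. *Ly6a*, which encodes Sca-1, was at 54.0 ± 5.71 CPM in combined treatment and 44.9 ± 2.04 CPM in ruxolitinib. It was at 128 ± 19.4 CPM in AG221 (SD, n = 3) and ran from 13.1 to 166 CPM in vehicle libraries. In ruxolitinib against WT, 4 of the 12 were called (1 higher and 3 lower), where 16.1% of all tested genes were called higher and 16.2% lower.

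Some haem-handling genes passed the test beside *Hp*. Of 12 tested, 3 were called in combined treatment against ruxolitinib (1 higher and 2 lower), where 8.50% of all tested genes were called higher and 3.94% lower. The ferritin light chain *Ftl1* (log2 fold change -0.52, adjusted p = 0.013) and the transferrin receptor *Tfrc* (-1.16, adjusted p = 0.0432) fell, and the haem exporter *Flvcr1* rose (1.29, adjusted p = 0.0333), but only *Ftl1* kept its call in more than 2 of the 6 leave-outs (4 of 6). *Ftl1* also rose in AG221 against vehicle (0.61, adjusted p = 0.0458). The haptoglobin-haemoglobin receptor *Cd163* was at 0.03 in combined treatment against ruxolitinib (adjusted p = 0.94), and haemopexin (*Hpx*) was too low to test. Haemoglobin, which haptoglobin binds, is among the erythroid markers, of which 4 of 11 fell in combined treatment against ruxolitinib (3.94% of all tested genes were called lower). The 4 were the globin genes *Hbb-bs*, *Hbb-bt*, *Hba-a1* and *Hba-a2*, and DESeq2 called 1 of the 11. The *Hbb* genes are close copies of each other, as are the *Hba* genes, so reads may be split within each pair. *Hbb-bs* was at 53.2, 55.4 and 609 CPM in ruxolitinib and at 10.02, 11.7 and 17.4 CPM in combined libraries, from lowest to highest, so that 1 ruxolitinib library stood far above the other 2.

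Of 10 acute-phase regulators and genes, 1 fell in combined treatment against ruxolitinib, where 3.94% of all tested genes were called lower. This was *Orm1* (adjusted p = 0.0406, called in 1 of 6 leave-outs), at a mean of 0.0482 against 0.437 CPM and with no more than 3 counts in any combined library. In AG221 against vehicle, where 0.471% of all tested genes were called higher, 1 rose, the serum amyloid gene *Saa3* (log2 fold change 4.18, adjusted p = 0.0458). *Saa3* was at 13.6, 3.75 and 4.73 CPM in AG221 and at 0.639, 0.223 and 0.355 CPM in vehicle libraries. Its change in combined treatment against ruxolitinib was -0.93 (adjusted p = 0.501).

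Of all tested genes, 8.50% were called higher and 3.94% lower in combined treatment against ruxolitinib, with a median log2 fold change of 0.0145. Among 14 other C-type lectin receptors tested beside *Mgl2*, 2 fell in this comparison (median -1.07). These were *Clec5a*, given above, which also rose in AG221 against vehicle (log2 fold change 1.78, adjusted p = 0.0458), and the inhibitory receptor *Clec12a* (-1.16, adjusted p = 0.0152), which kept their calls in 2 and 3 of the 6 leave-outs. *Clec10a*, the neighbour and closest relative of *Mgl2*, was at 0.19 (adjusted p = 0.815) and in AG221 against vehicle at 0.50 (adjusted p = 0.42). Of 18 monocyte, macrophage and dendritic cell markers, *Ly6c2* (-1.60, adjusted p = 0.014) and *Adgre1* (-1.30, adjusted p = 0.0448) fell and *Zbtb46* (1.54, adjusted p = 0.0369) rose, where 3.94% of all tested genes were called lower and 8.50% higher. Their calls held in 3, 1 and 1 of the 6 leave-outs. The summed level of the 18 markers was 2287 to 3367 CPM in AG221, 1451 to 2470 in ruxolitinib, 1239 to 2340 in vehicle, 1061 to 1600 in combined and 1133 to 1252 in WT libraries, and its part in the *Mgl2* result was not tested.

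The sortilin list stayed mostly below the threshold while *Sort1* rose. In combined treatment against ruxolitinib, 8.50% of all tested genes were called higher and 3.94% lower. Of 17 relatives, ligands and sorting adaptors tested, 1 rose in this comparison and none fell, with a median of -0.19. This was the retromer subunit *Vps26b* (1.49, adjusted p = 0.0427, called in 1 of 6 leave-outs). The related receptor *Sorl1* was at 0.43 (adjusted p = 0.499) and the sortilin ligand progranulin (*Grn*) at -0.15 (adjusted p = 0.552).

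Of 32 SCF core and other F-box genes, 10 rose in combined treatment against ruxolitinib and none fell (median 0.37), where 8.50% of all genes were called higher, whereas *Fbxo38* fell. The other 22 did not pass. In AG221 against vehicle 0 of the 32 passed the edgeR test (16 at an unadjusted p under 0.05, 9 called by DESeq2), and the median was -0.294, on the same side of 0 as *Fbxo38*. Among the 10 that rose in combined treatment against ruxolitinib were *Fbxw7* (1.35, adjusted p = 0.00213), which targets MYC and Notch for degradation, and *Fbxo45* (1.46, adjusted p = 0.00127). Others of the 10 were *Fbxl20*, *Fbxo4*, *Fbxo9*, *Fbxo11*, *Fbxo28*, *Fbxo31* and *Fbxw8*. The last 7 had log2 fold changes from 0.75 (*Fbxo11*) to 2.51 (*Fbxo28*). In the 6 leave-outs these named genes kept their calls, except *Fbxo9*, which kept its call in 3. The core subunits *Skp1a* (-0.08) and *Cul1* (0.24) did not pass (adjusted p = 0.767 and 0.332).

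Of 13 PLEKHA family genes and junction partners, *Plekha8* (1.02, adjusted p = 0.0338) and *Tspan33* (2.11, adjusted p = 0.0308) rose in combined treatment against ruxolitinib (called in 1 and 2 of 6 leave-outs), and *Adam10* fell in AG221 against vehicle (-1.14, adjusted p = 0.0458). Of all tested genes, 8.50% were called higher in the first comparison and 0.516% lower in the second. *Adam10* encodes a protease that PLEKHA7 and TSPAN33 hold at junctions. The calls of *Adam10*, *Saa3*, *Ftl1*, *Clec5a* and *Ctsg* in AG221 against vehicle each held in 1 of the 6 leave-outs of that comparison, with adjusted p up to 0.201. *Plekha5* and *Plekha7* were at 0.52 and 0.81 in combined treatment against ruxolitinib (adjusted p = 0.328 and 0.209).

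Of the other lists, 1 of 6 megakaryocyte, 1 of 6 mast cell and basophil and 1 of 7 tested T and NK cell markers were also called in combined treatment against ruxolitinib, as was 1 of the 3 drug target genes. Of all tested genes, 8.50% were called higher and 3.94% lower. *Gp1bb* rose (6.06 ± 4.68 against 0.394 ± 0.275 CPM, adjusted p = 0.00854), *Hdc* fell (53.2 ± 13.0 against 136 ± 10.8 CPM, adjusted p = 0.00536), *Cd3d* fell (0.0865 ± 0.108 against 1.13 ± 0.88 CPM, adjusted p = 0.0297) and *Jak2* rose (46.9 ± 6.11 against 21.5 ± 0.943 CPM, adjusted p = 0.00135, SD, n = 3). *Gp1bb*, *Hdc* and *Jak2* kept their calls in all 6 leave-outs. *Cd3d*, with its lowest ruxolitinib library at 0.112 CPM, kept its call in 2 of 6 (adjusted p up to 0.116). *Cd3d* and *Gp1bb* were not called with a minimum of 10 counts per library or in the fit of only these groups.

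**Figure D4:**
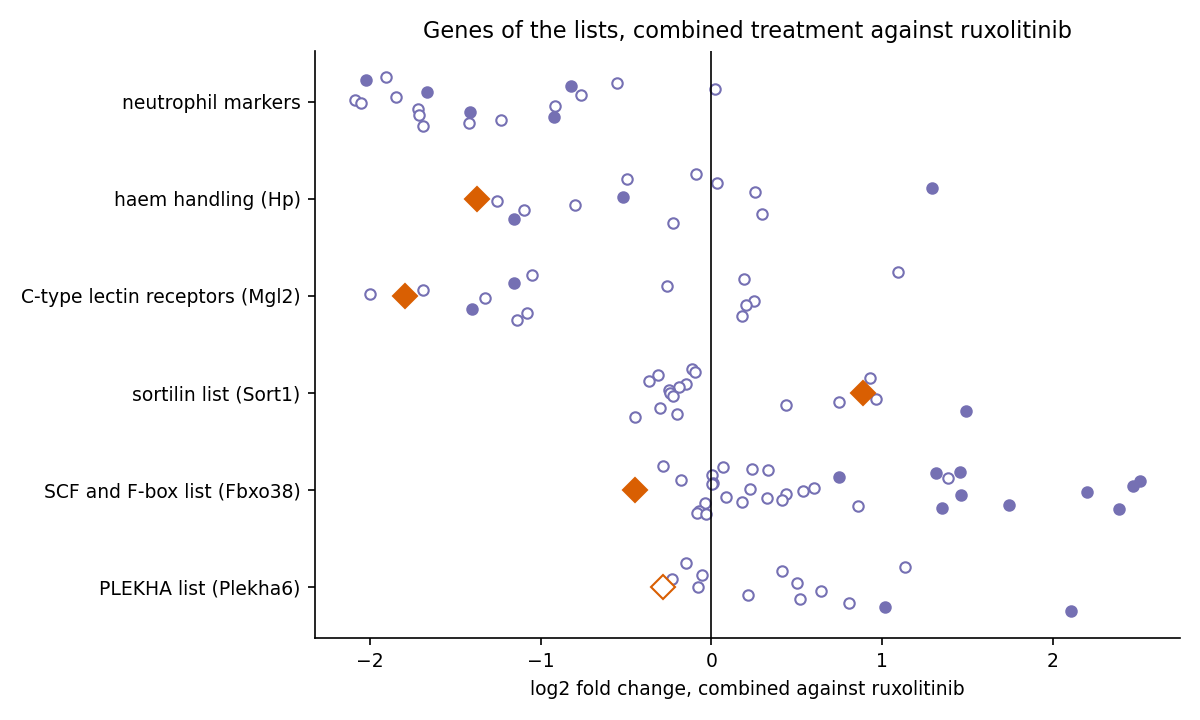
Log2 fold change in combined treatment against ruxolitinib (x axis) of each tested gene of 6 lists (rows), filled where the adjusted p was under 0.05, with the selected gene of each list as a diamond. The neutrophil markers lie mostly below 0, from -2.09 to 0.02, and the filled F-box genes lie above 0 while the diamond of *Fbxo38* is at -0.45.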

How the data were processed

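RNA from sorted LSK cells was measured in 15 libraries, 3 in each of 5 groups taken from the sample labels. The authors deposited raw read counts per Ensembl gene, made with STAR 2.5.1a on mm10 (GRCm38) according to the submitters' processing notes. The Ensembl release and the strand setting are not given in the sources used here. A table of DESeq2 1.6.3 normalized counts was also deposited and was not used here. Symbols, coordinates and exon lengths came from GENCODE release M21, which matched 44585 of 45232 gene IDs.

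Genes that passed edgeR's filterByExpr (17834) were fitted over all 15 libraries with TMM scaling and the quasi-likelihood test (edgeR 4.0.16, R 4.3.3), with Benjamini-Hochberg adjustment over all of them and calls at an adjusted p under 0.05. Log2 CPM used a prior count of 2, and likeness was Pearson's r of log2 CPM. Tests of the 6 genes were limited to the 3 comparisons among combined, ruxolitinib and WT libraries, which share those libraries with each other. The members and gene lists were chosen with earlier results of these data known. Named genes were the 6, the 3 genes most like each, genes next to the choice by p, and, from the lists, those called in combined treatment against ruxolitinib and close relatives or partners of the 6. Named after their values were seen were the list genes called in AG221 against vehicle, *Grn*, and the check genes *Xist*, *Ddx3y*, *Idh2*, *Jak1*, *Stat3*, *Kit*, *Cd34*, *Ly6a*, *Krt5*, *Krt14*, *Krt18* and *Cdh1*.

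The alternatives were DESeq2 1.42.0, upper quartile or RLE scaling, filters of 1 count in total or of 10 counts per library, fits limited to each pair of groups, a prior count of 0.5, Spearman's rho for likeness and leaving out each library. Depth was 18836625 to 32174287 counts per library. A called list gene is not reported here.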

Additional observations from a re-analysis of the deposited data

Results flagged for a closer look

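For 3 of the 6 genes every AG221 library lay on one side of every vehicle library and every combined library on the other side of every ruxolitinib library. *Dmkn* had log2 fold changes of 2.02 and -1.41 in these comparisons, *Hp* of 1.63 and -1.37, and *Mgl2* of 2.17 and -1.80. This pattern, in either direction, held for 2.85% of all tested genes. The first value of each pair chose the gene, and the difference between the pair was not tested.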

How the results depend on the processing

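In combined treatment against ruxolitinib, 1515 genes were called higher and 702 lower, and these ranged over 847 to 1386 and 274 to 513 when a library was left out. In combined treatment against WT, 291 and 288 genes were called. DESeq2 gave 997 and 856, upper quartile normalization 102 and 539, a minimum of 10 counts 106 and 168, and a fit of only these groups 630 and 1158. With no filter, 541 were lower. Leaving out libraries gave 50 to 236 higher and 38 to 209 lower. Of the 6 genes, DESeq2 called 3, the fit of only these groups 2 and no filter 1 against WT, and leaving out libraries gave 0 to 2. In ruxolitinib against WT, 2867 higher and 2892 lower genes became 1037 to 2643 and 873 to 2537 with a library left out, and upper quartile normalization gave 1711 higher. The causes were not tested. *Fbxo38* in combined treatment against WT changed sign, to -0.11 with upper quartile normalization and -0.030 with at least 10 counts. Per neutrophil marker sum, a scale that shifts every gene alike, combined minus ruxolitinib changed sign for *Hp* (0.011), *Fbxo38* (0.93) and *Plekha6* (1.10), which follows from that shift. Upper quartile normalization moved the median of all genes in combined treatment against ruxolitinib to -0.115. No paired analysis was possible because every replicate name is unique to its library. *Plekha6* rested on 31 to 32 counts in each AG221 library.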
